A study of Caenorhabditis elegans with 18 samples.

Results

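The genes described here are the F-box and MATH/BTB domain genes of Caenorhabditis elegans, taken by gene symbol (fbxa, fbxb, fbxc, math or bath followed by a number). A gene was kept as a member when its mean level was at least 1 CPM (the counts of a gene relative to the TMM-scaled total of its library) in at least 1 of the 4 groups of worms. Of 395 genes with such symbols among 46748 genes counted, 143 were kept: 78 fbxa, 3 fbxb, 15 fbxc, 16 math and 31 bath genes. The other 252 lay below the limit, and 20 of the 395 had no read in any library. Just inside the limit were fbxa-127, fbxc-23 and fbxa-196, with 1.005, 1.026 and 1.031 CPM in their highest group, and just outside were fbxa-209, math-10 and fbxa-155, with 0.974, 0.9611 and 0.9092 CPM.

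Poly(A) RNA of whole worms was sequenced in 18 libraries of 2 strains. The groups were the wild-type strain N2 (WT) in the cold, WT in the control, the strain CF2473 with the deletion allele ire-1(ok799) in the cold, and that strain in the control. IRE-1 is a stress sensor in the membrane of the endoplasmic reticulum. All worms were raised at 15 °C from the egg for 5 days to day 1 of adulthood; control worms were taken at that point, and cold worms were taken after a further 24 h at 2 °C. Cold worms were thus also 24 h older, so that cold and age cannot be told apart. Experiment 1 held 3 libraries of each group, and experiment 2 held 3 more of WT cold and 3 more of WT control, numbered 4 to 6. The deletion is present in all tissues, and because RNA came from whole worms, fewer cells of a type and less RNA per cell cannot be told apart.

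F-box proteins hold the substrate of SCF ubiquitin ligases: the F-box binds the adaptor SKP1, which docks on the cullin CUL1 and the RING protein RBX1, and the rest of the protein picks the target. Proteins with a MATH and a BTB domain do the same work for CUL-3, the MATH domain taking the target and the BTB domain the cullin. In nematodes both kinds of gene have multiplied into large families that lie in clusters and evolve quickly, and the targets of most of them are unknown. The domains were not checked here, since no protein sequence was used, and genes were assigned to families by symbol. Which math and bath members encode both a MATH and a BTB domain, and so could act with CUL-3, was not determined.

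Total counts were 20621965 to 29518450 per library in experiment 1 and 10449794 to 16814732 in experiment 2. At the smallest of these totals, 1 CPM is 10 reads or more. Counts of ire-1 sum the whole gene, reads outside the deleted part included, so they check the labels only in part. The gene had 63.8, 39.0 and 54 CPM in ire-1 cold and 169.2 to 227.5 CPM in WT cold. It had 36.6, 56.3 and 54.6 CPM in ire-1 control and 85.4 to 209 CPM in WT control, so the strains did not overlap. Summed sperm marker RNA (44 genes) was 356.4 to 1549.7 CPM in WT cold 2, WT control 1, ire-1 cold 2 and ire-1 control 1, against 13.3 to 136.5 CPM in the other 14 libraries. Members whose calls for cold change without those 4 libraries are named, some of them with the values of that fit.

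Most members were weakly expressed. The median over members of the mean level in the 18 libraries was 2.32 CPM in fbxa, 4.26 CPM in fbxb, 3.45 CPM in fbxc, 2.41 CPM in math and 6.95 CPM in bath genes. Only 34 of the 136 members tested for cold in WT averaged 10 CPM or more, among them 1 math gene. The families differed in how many of their genes were kept: 86.1% of 36 bath genes reached the limit, against 2.88% of 104 fbxb genes.

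A few genes took much of the counts of each family. Per kilobase of exon, the highest mean levels were 206.7 CPM in fbxa-215, 145.9 CPM in bath-42, 117.3 CPM in bath-41, 114.0 CPM in bath-40 and 80.7 CPM in math-33. math-33, which encodes a deubiquitinating enzyme related to USP7, made up 89.7% of the summed CPM of the math members. fbxa-215 made up 35.3% of the fbxa sum and bath-42 made up 25% of the bath sum. bath-42 had 230.3, 281.9 and 329.5 CPM (lowest, median, highest) in WT cold and 95, 219.2 and 275.6 CPM in WT control. These ranges overlapped, and the lowest value was in WT control 1, the library with the smallest sum of oocyte and germline markers (4311.9 CPM).

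In WT worms, cold went with lower levels of many weakly expressed math and fbxa genes and with higher levels of 5 members. Each gene was tested with edgeR's quasi-likelihood test over all 12 WT libraries, with experiment as a second term, and called at a Benjamini-Hochberg adjusted p under 0.05. Of 136 members tested, 29 fell (21.3%) and 5 rose (3.68%), against 10.4% that fell and 2.7% that rose among 11766 tested genes. The other 7 members (bath-13, fbxa-38, fbxa-71, fbxa-163, fbxa-188, fbxa-196 and fbxa-202) had enough reads in too few WT libraries to be tested. The median log2 fold change of the members was -0.19, and that of all tested genes was -0.07.

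By family, the counts were as follows. Of 16 math genes 10 fell, with a family median log2 fold change of -1.86, and of 72 fbxa genes 18 fell, with a median of -0.30. Of 30 bath genes 1 fell and 1 rose, with a median of 0.10. Of 15 fbxc genes 1 rose and 0 fell in edgeR (1 at an unadjusted p under 0.05; 0 in DESeq2), with a median of -0.16. Of 3 fbxb genes edgeR called 0, with 0 at an unadjusted p under 0.05 and 0 in DESeq2. Whether the families differ was not tested. The 2 genes of each family with the highest mean CPM were not called: their log2 fold changes were 0.29 for fbxa-215, 0.06 for fbxa-101, 0.16 for fbxb-7, -0.35 for fbxb-67, 0.20 for fbxc-44, -0.57 for fbxc-50, 0.47 for math-33, -0.31 for math-22, 0.41 for bath-42 and 0.24 for bath-41. Without the 4 libraries with much sperm RNA, or without WT control 1 alone, fbxc-50 was called lower (-0.79 ± 0.20 without the 4, edgeR adjusted p = 0.0306).

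**Figure D1:**
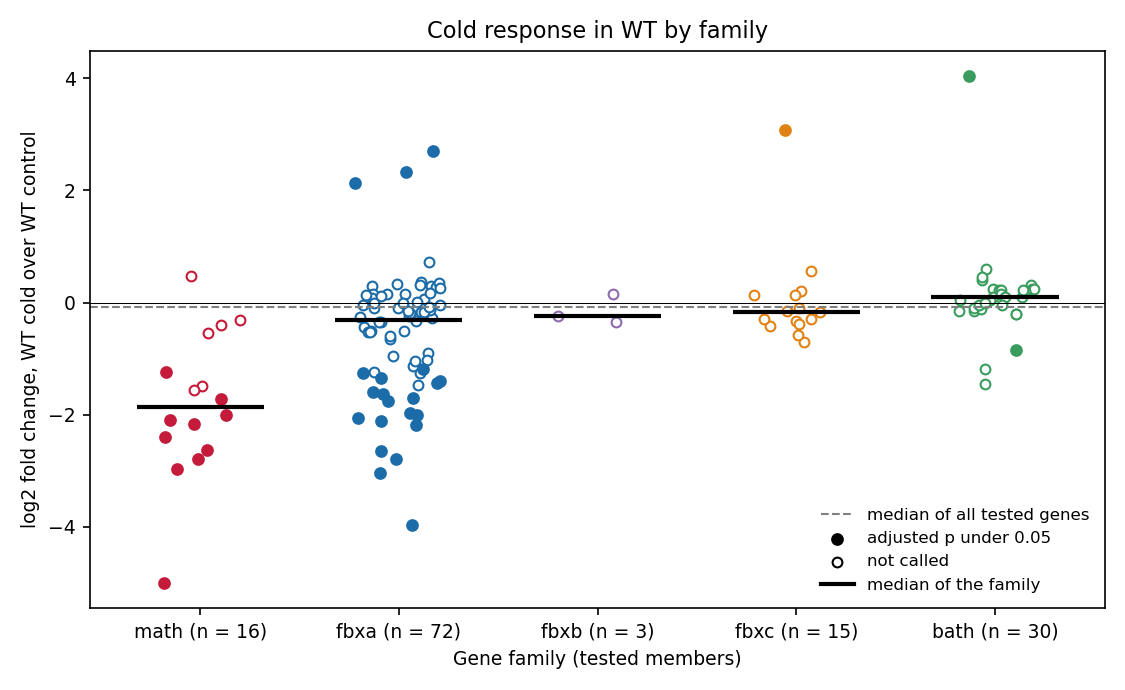
Log2 fold change of WT cold over WT control for each tested member, by family. Filled points have an adjusted p under 0.05 (edgeR), open points do not, black bars are family medians and the dashed line is the median of all tested genes (-0.07). The math median lies at -1.86 with 10 of 16 genes called lower, while the bath median lies at 0.10.

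The members were kept for reaching 1 CPM in any group, and 22 of the 29 that fell reached it in control groups only. Of the 5 that rose, 3 reached it in cold groups only. The limit thus enters both shares, which are given under other limits too. With the limit set instead on the mean of the 18 libraries, 22 of 124 members fell (17.7%) and 5 rose (4.03%), against 10.1% and 2.81% of 10856 genes. With no CPM limit, 29 of 146 tested family genes fell (19.9%) and 6 rose (4.11%), against 10.4% and 2.7% of 11766 genes. Under the limit of the members, 10.6% of 11282 tested genes fell and 2.79% rose. Among genes averaging under 10 CPM, 29 of 102 members fell (28.4%), against 16.8% of 4772 genes, which had no 1 CPM limit. At 10 CPM or more, 0 of 34 members fell and 1 rose by the same edgeR test, against 6.11% of 6994 genes that fell. Of the 34, 1 was lower and 4 were higher at an unadjusted p under 0.05, and DESeq2 called 1 lower and 3 higher.

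**Figure D2:**
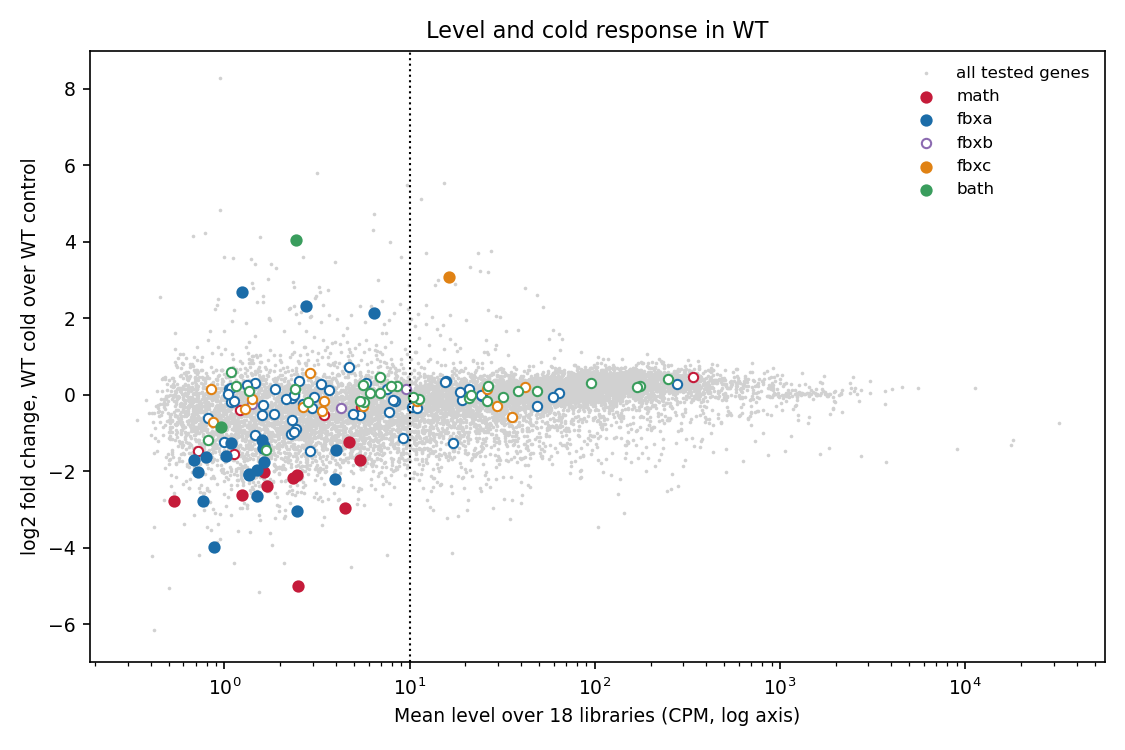
Mean CPM over 18 libraries (log axis) against the log2 fold change of WT cold over WT control. Grey points are all 11766 tested genes, coloured points are members by family, filled where called by edgeR, and the dotted line marks 10 CPM. All 29 members that fell lie left of the line.

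The member with the largest fold change was math-20 (chromosome II, 1996537 to 1998531, plus strand, WBcel235). Its level was 0.0, 0.16 and 0.259 CPM (lowest, median, highest of 6) in WT cold, against 2.54, 4.90 and 8.19 CPM in WT control. Raw counts were 0 to 6 reads in WT cold and 39 to 209 reads in WT control. No WT cold library came near any WT control library, and the log2 fold change was -4.99 ± 0.52 (SE, edgeR adjusted p = 0.000344).

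math-3 and math-26 lie next to each other on chromosome II and share exon bases on the same strand, so reads of the shared part cannot be assigned to either with certainty. math-3 had 0.43, 0.935 and 1.61 CPM (lowest, median, highest) in WT cold, against 5.97, 6.80 and 11.2 CPM in WT control. Every WT cold library was below every WT control library, with a log2 fold change of -2.97 ± 0.37 (edgeR adjusted p = 0.000632). math-26 fell by 1.71 ± 0.43 on the log2 scale (edgeR adjusted p = 0.0225), and its groups overlapped, with 1.05 to 5.0 CPM in WT cold and 4.41 to 13.5 CPM in WT control. Without the 4 libraries with much sperm RNA it was not called (-1.49 ± 0.44, edgeR adjusted p = 0.0543).

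The other math genes that fell were math-45 (log2 fold change -2.79), math-18 (-2.62), math-39 (-2.39), math-14 (-2.17), math-24 (-2.10), math-40 (-2.01) and math-4 (-1.23). Their edgeR adjusted p values ran from 0.00226 for math-40 to 0.0334 for math-4. Without math-33, the summed level of the math members was 12.6 to 36.9 CPM in the 6 WT cold libraries, against 40.7 to 88.8 CPM in the 6 WT control libraries, and the groups did not overlap. math-33 itself had 289.3, 381.5 and 479.7 CPM (lowest, median, highest) in WT cold and 168.6, 277.7 and 373.2 CPM in WT control. These ranges overlapped, and its log2 fold change of 0.47 ± 0.14 missed the threshold in edgeR (adjusted p = 0.0514), although DESeq2 called it; DESeq2 called 8.49% of all tested genes higher and 13.7% lower in WT cold.

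Among the fbxa genes, the smallest p values belonged to fbxa-54 and fbxa-190. fbxa-54 (chromosome III, 956334 to 957901, plus strand) had 0.323, 0.647 and 0.981 CPM (lowest, median, highest) in WT cold and 2.47, 5.17 and 8.08 CPM in WT control. The groups did not overlap, and the log2 fold change was -3.04 ± 0.43 (edgeR adjusted p = 0.00107). fbxa-190, the single member on chromosome X that fell, had 0.0 to 0.315 CPM in WT cold and 0.845 to 3.49 CPM in WT control, a log2 fold change of -3.97 ± 0.59 (edgeR adjusted p = 0.00151). At 0 to 9 reads in each WT cold library, counting error adds clearly to its spread.

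The next 4 fbxa genes by p were fbxa-55 (log2 fold change -2.19), fbxa-51 (-2.64), fbxa-167 (-1.39) and fbxa-84 (-2.11), with edgeR adjusted p values from 0.00528 to 0.00679. For each of them WT cold was below WT control in both experiments without overlap. The remaining 12 fbxa genes that fell had log2 fold changes from -2.78 for fbxa-219 to -1.18 for fbxa-76. fbxa-27 (-1.70 ± 0.46, edgeR adjusted p = 0.031) was not called without the 4 libraries with much sperm RNA (-1.49 ± 0.50, edgeR adjusted p = 0.0827). fbxa-19 and fbxa-27 share exon bases with a gene on the other strand, and whether the counting used strand is not given in the sources used here. bath-10 was the single bath gene that fell, by 0.84 ± 0.25 on the log2 scale (edgeR adjusted p = 0.0454), with 0.595 to 1.06 CPM in WT cold and 1.04 to 1.89 CPM in WT control. The call of bath-10 was lost in DESeq2 (adjusted p = 0.0605), with RLE factors, without the filter, with all 18 libraries, with the replicate block, without the 4 libraries with much sperm RNA (edgeR adjusted p = 0.108) and in 10 of 12 fits that left out 1 WT library.

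The 5 members that rose belong to 3 families and are spread over 4 chromosomes. fbxc-58 (chromosome IV, 9371508 to 9373206, plus strand) had 13, 19.9 and 74.7 CPM (lowest, median, highest) in WT cold and 1.04, 2.18 and 5.88 CPM in WT control. The highest value, in WT cold 5, stood apart from the other 5 WT cold libraries, yet all 6 were above every WT control library. Its log2 fold change was 3.08 ± 0.57 (edgeR adjusted p = 0.00475).

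bath-25 had 2.03, 3.01 and 16.2 CPM (lowest, median, highest) in WT cold, against 0.045, 0.223 and 0.666 CPM in WT control. WT cold 5 was again the highest library, the groups did not overlap, and the log2 fold change was 4.04 ± 0.74 (edgeR adjusted p = 0.0044). fbxa-37 and fbxa-50 are neighbours on chromosome III (1284996 to 1287140, plus strand, and 1287299 to 1288523, minus strand). fbxa-37 had 4.98, 7.82 and 14.2 CPM in WT cold and 0.78, 1.87 and 3.56 CPM in WT control, a log2 fold change of 2.13 ± 0.41 (edgeR adjusted p = 0.00596).

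fbxa-50 had 0.369 to 3.64 CPM in WT cold and 0.0363 to 0.509 CPM in WT control, with a log2 fold change of 2.70 ± 0.60 (edgeR adjusted p = 0.0119). Its groups overlapped when both experiments were pooled but not within either. fbxa-82 on chromosome V had 2.42 to 10.4 CPM in WT cold and 0.325 to 1.92 CPM in WT control, with a log2 fold change of 2.33 ± 0.52 (edgeR adjusted p = 0.0121). All 5 were also called by DESeq2, and 4 of the 5 in each of 12 fits that left out 1 WT library, the exception being fbxa-50.

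**Figure D3:**
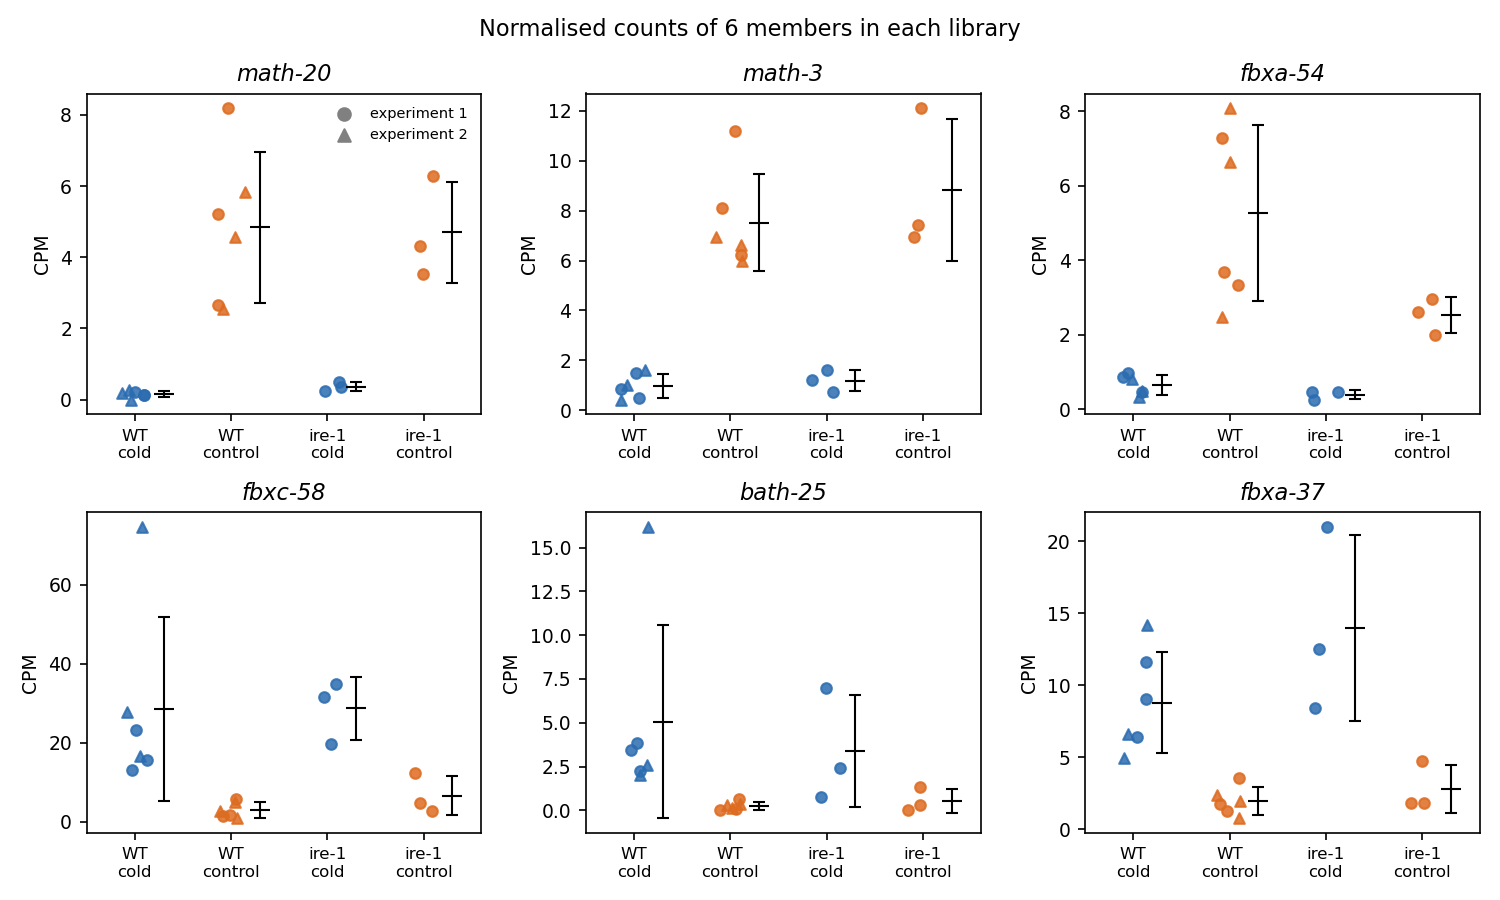
CPM of 6 members in each library (circles, experiment 1; triangles, experiment 2; blue, cold; orange, control), with the mean and SD of each group beside the points. In WT cold, math-20, math-3 and fbxa-54 are below every WT control library, while fbxc-58, bath-25 and fbxa-37 are above every one. WT cold 5 is the highest point for fbxc-58 (74.7 CPM) and bath-25 (16.2 CPM).

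Library by library, WT cold lay below WT control without overlap in both experiments for 18 of 136 members (13.2%), against 6.81% of all tested genes, and all 18 were among the 29 called lower. It lay above for 5 members (3.68%), against 2.24% of all tested genes, and these were the 5 called higher. Of the 29 members that fell, 16 were called in every fit that left out 1 library. Leaving out WT cold 1 gave 17 members lower, and leaving out WT cold 3 or WT control 4 gave 18 each.

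Neither experiment alone gave a call among the members: edgeR called 0 members in experiment 1 alone (37 at an unadjusted p under 0.05) and 0 in experiment 2 alone (29 at an unadjusted p under 0.05), where it called 3 and 48 genes of all tested. Of the 29 that fell, all 29 had negative values in experiment 1 alone, and the 28 tested in experiment 2 alone were negative there too. Without the 4 libraries with much sperm RNA, 22 members fell and 6 rose, against 8.24% and 2.64% of all tested genes, and 21 of the 29 and 4 of the 5 were still called. math-45 and fbxa-50 were not tested in that fit, and bath-10, fbxa-4, fbxa-11, fbxa-27, fbxa-74, fbxa-189 and math-26 were tested and not called. fbxc-50 was newly called lower, and fbxa-182 and fbxc-43 were newly called higher.

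**Figure D4:**
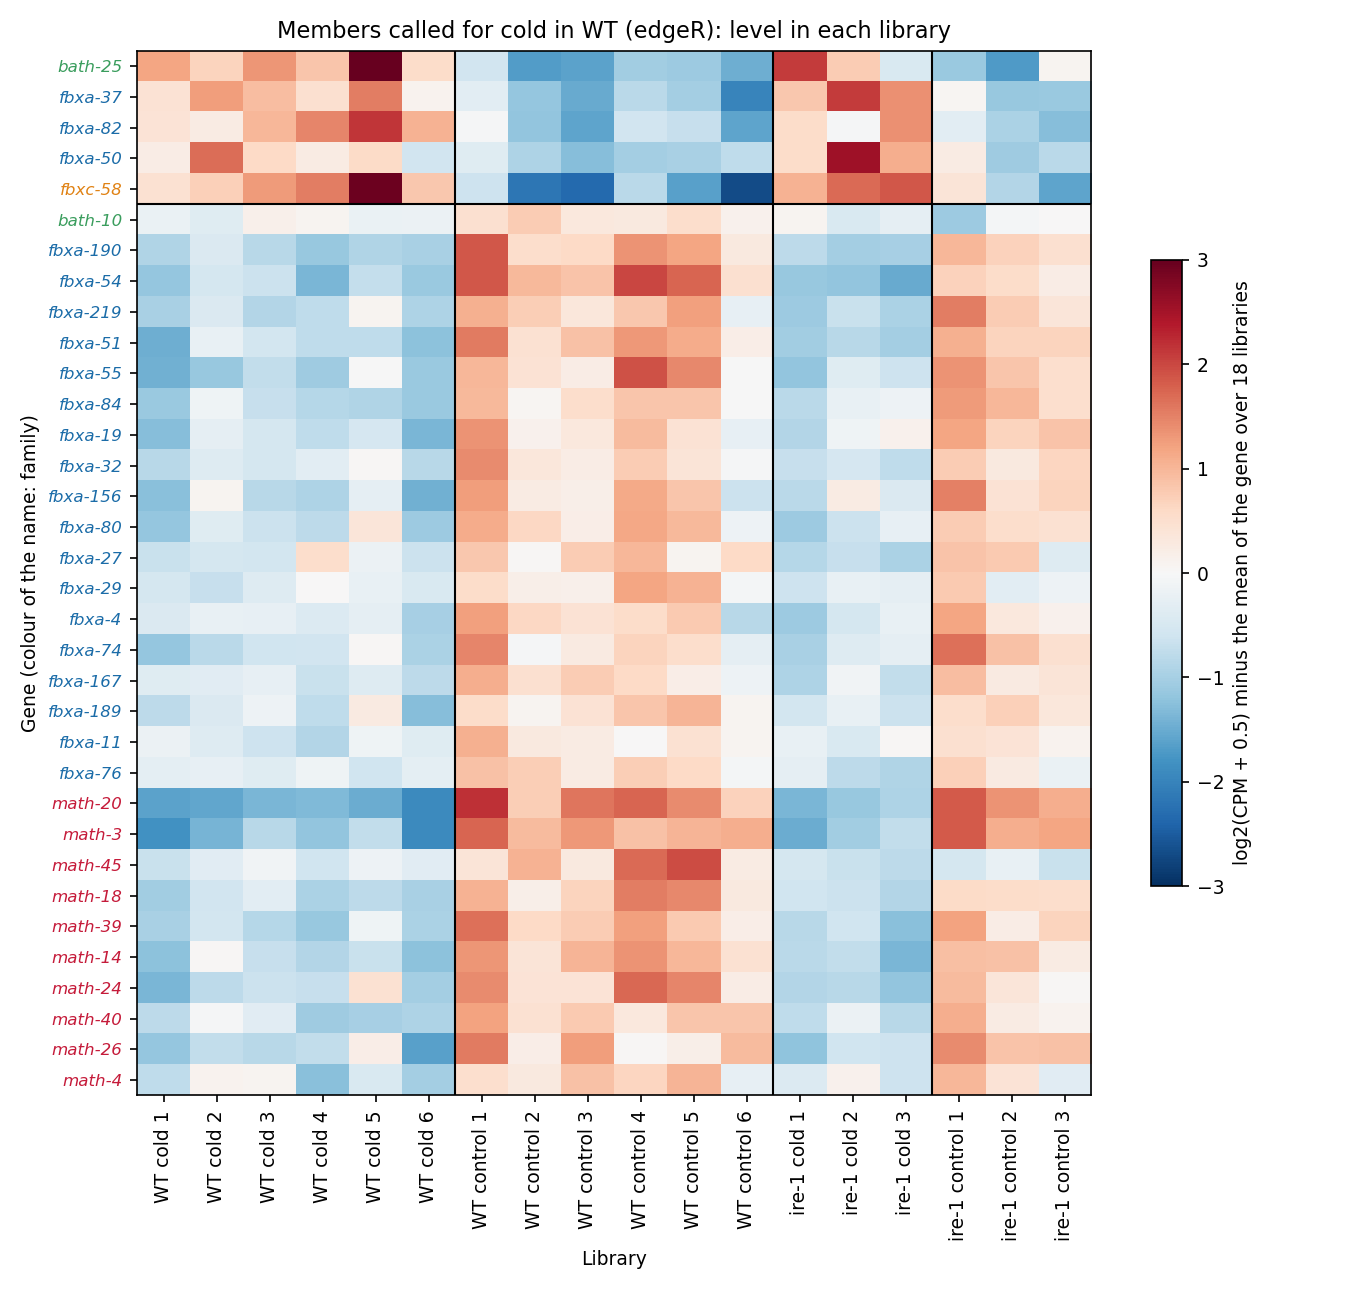
Level of the 34 called members in each library, as log2(CPM + 0.5) minus the mean of the gene over 18 libraries, with cold libraries left of control libraries in each strain. Names are coloured by family. The 5 genes above the horizontal line are higher in WT cold and the 29 below it are lower, and the ire-1 libraries show the same split for most rows.

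Chromosome II held 58 members, V 34, III 32, I 9, IV 5 and X 5. By chromosome, 13 of 56 tested members fell on II, where 11.2% of all tested genes fell, and 12 of 30 on III, where 5.82% of all genes fell. On V it was 3 of 31 members, against 15.7% of all genes, and on X 1 of 5, against 15.6%. The next counts are for regions bounded by members that fell, chosen after the values were seen, and carry no test.

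Between 1510287 and 2155220 on chromosome II, 10 of 14 tested math genes fell, with a median log2 fold change of -2.06. In the same region 0 of 12 bath genes fell (median 0.04) by the same edgeR test, with 2 lower at an unadjusted p under 0.05 and 0 called by DESeq2. Next to math-20 lie 7 bath genes between 2014902 and 2045605, and their log2 fold changes ran from -0.05 (bath-5) to 0.60 (bath-20). The 4 math genes there that were not called were math-38 (-1.55), math-41 (-0.54), math-44 (-0.40) and math-22 (-0.31). Of 32 other tested genes in the region 4 fell, among them btb-9, a BTB gene outside the named families, with a log2 fold change of -5.17 ± 0.64 (edgeR adjusted p = 0.000619).

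Between 933422 and 2294191 on chromosome III, 12 of 25 tested fbxa genes fell and 2 rose, with a median log2 fold change of -1.18, while 9 of 105 other tested genes fell (median -0.10). The longest run of members with gaps of at most 20 kb, between 1239048 and 1344744, held 14 fbxa genes. In it fbxa-76, fbxa-32, fbxa-29, fbxa-80, fbxa-19 and fbxa-27 fell, while fbxa-37 and fbxa-50 rose. The 6 others were not called and ran from -1.04 (fbxa-61) to 0.26 (fbxa-63). Near-identical genes of such clusters can share reads, and how reads that fit several genes were counted is not given in the sources used here.

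In ire-1 worms edgeR called 0 of 143 members for cold, where it called 8 of 14344 genes (0.0558%), all higher in the cold, and 0 genes with the replicate block. At an unadjusted p under 0.05 there were 31 members, and the smallest adjusted p was 0.0778 for math-20. DESeq2 called 2 members higher and 14 lower, against 1.15% higher and 1.23% lower of all tested genes. Without the 4 libraries with much sperm RNA, edgeR called 4 higher and 7 lower, against 0.575% and 0.859% of 13040 genes. The 4 were fbxa-37, fbxa-50, fbxa-82 and fbxc-58, and the 7 were math-3, math-20, math-39, fbxa-54, fbxa-188, fbxa-190 and fbxa-219.

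The members named for WT had these values in ire-1. math-20 had 0.234, 0.364 and 0.504 CPM in ire-1 cold and 6.28, 4.31 and 3.53 CPM in ire-1 control, a log2 fold change of -3.66 ± 0.56. math-3 had 0.748, 1.21 and 1.61 CPM in ire-1 cold and 12.1, 6.96 and 7.41 CPM in ire-1 control, a log2 fold change of -2.88 ± 0.52 (edgeR adjusted p = 0.0914). Neither gene overlapped between ire-1 cold and ire-1 control. fbxa-54 had 0.467, 0.445 and 0.252 CPM in ire-1 cold and 2.96, 2.61 and 2.0 CPM in ire-1 control, a log2 fold change of -2.68 ± 0.52 (edgeR adjusted p = 0.106).

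Of the genes that rose in WT, fbxc-58 had 19.7, 31.5 and 35.0 CPM in ire-1 cold and 12.3, 4.88 and 2.79 CPM in ire-1 control, a log2 fold change of 2.1 ± 0.68 (edgeR adjusted p = 0.365). fbxa-37 had 8.41, 21 and 12.5 CPM in ire-1 cold and 4.75, 1.81 and 1.84 CPM in ire-1 control, a log2 fold change of 2.34 ± 0.61 (edgeR adjusted p = 0.199). bath-25 overlapped, with 6.96, 2.43 and 0.756 CPM in ire-1 cold and 0.305, 0.0385 and 1.33 CPM in ire-1 control.

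Without overlap, ire-1 cold lay below ire-1 control for 40 of 143 members (28.0%), against 9.32% of all tested genes, and above it for 4 (2.8%), against 4.53%. The 40 were 28 fbxa, 10 math, 1 fbxc and 1 bath genes. With the limit set on the mean of the 18 libraries, 34 of 125 members lay below (27.2%), against 9.01% of genes. Of the 29 members that fell in WT, 28 had a negative value in ire-1 (96.6%), against 96.7% of all genes that fell in WT. The exception was bath-10 (0.19 ± 0.59). All 5 that rose in WT had a positive value.

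Across members, the log2 fold changes in ire-1 and in WT of experiment 2, which share no library, correlated with Pearson's r = 0.844 and Spearman's rho = 0.698 (134 members). Over all 11282 genes these were 0.753 and 0.70. Genes of one library are not independent, and the values are given as a description.

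**Figure D5:**
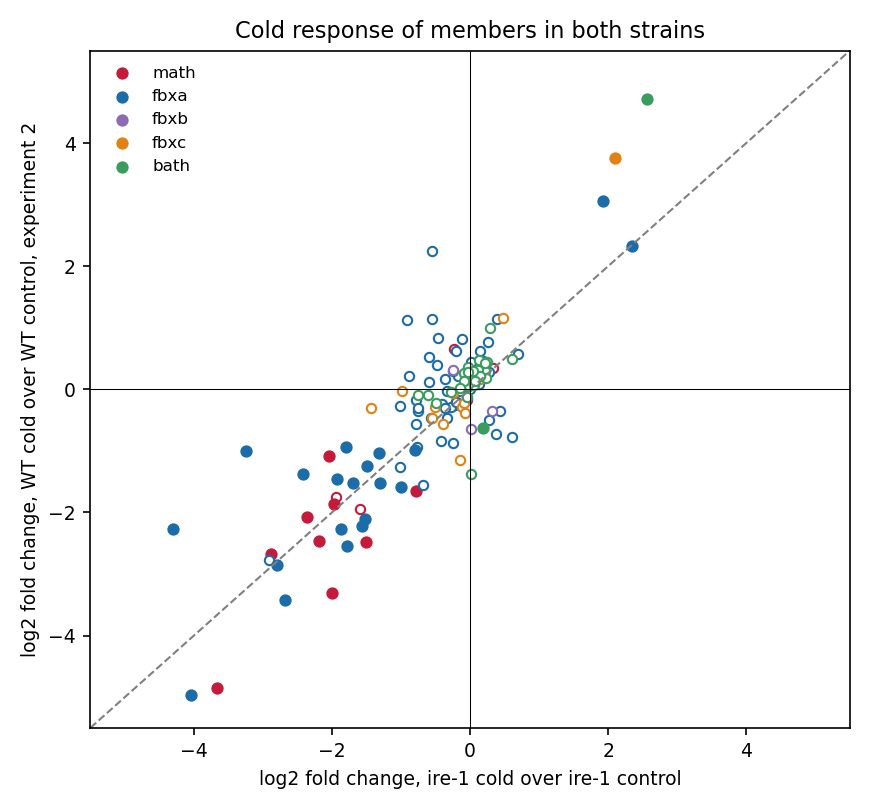
Log2 fold change of cold over control in ire-1 (horizontal) and in WT of experiment 2 (vertical), 134 members coloured by family. Filled points were called in WT over both experiments and the dashed line marks equal values. Pearson's r was 0.844, and the filled points other than bath-10 lie in the lower left and upper right.

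The difference in cold response between the strains was tested directly within experiment 1. edgeR called 0 of 143 members (0.0% of all genes called) and DESeq2 called 0 (0.00697% of all genes called), and 1 member, fbxa-14, had an unadjusted p under 0.05. fbxa-14 had 0.748, 2.1 and 2.17 CPM in ire-1 cold, against 0.46, 0.911 and 0.644 CPM in WT cold of experiment 1. Its control levels were 2.83, 2.42 and 2.39 CPM in ire-1 and 3.64, 2.79 and 2.47 CPM in WT of experiment 1, so the difference in log2 fold change was 1.55 ± 0.70 (edgeR adjusted p = 0.996). In experiment 2, which did not enter this fit, WT cold had 2.78, 5.0 and 1.54 CPM of fbxa-14, close to WT control (2.99, 3.79 and 1.76 CPM). For math-20 the difference was 1.35 ± 0.73. With 3 libraries a group these errors do not show that the strains respond alike.

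The strains were also compared within each condition. In the control edgeR called 0 of 143 members, where it called 9 genes (0.0627%; 0.0139% higher and 0.0488% lower in ire-1), with 15 at an unadjusted p under 0.05, and DESeq2 called bath-19 higher in ire-1 (0.593% of all genes higher, 1.46% lower). In the cold edgeR called 0 (2 genes, 0.0139% of all genes, called; 22 genes and 0 members with the replicate block), with 14 members at an unadjusted p under 0.05, and DESeq2 called 0 (0.167% of all genes higher, 0.16% lower). Without overlap, ire-1 control lay below WT control for 16 members (11.2%), against 10.2% of all genes, and above for 4 (2.8%), against 4.43%. In the cold ire-1 lay below WT for 15 members (10.5%), against 7.42% of all genes, and above for 10 (6.99%), against 5.08%.

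The smallest p values between the strains belonged to fbxc-32, bath-19 and fbxa-210 in the control. fbxc-32 had 11.4, 22.1 and 20.1 CPM in ire-1 control, against 31.2, 57.1 and 37.9 CPM in WT control, and 23.5, 10.2 and 16 CPM in ire-1 cold, against 34.8, 26.3 and 44.8 CPM in WT cold. The strains did not overlap in either condition. The log2 fold change of ire-1 over WT was -1.29 ± 0.35 in the control (edgeR adjusted p = 0.187) and -1.15 ± 0.35 in the cold (edgeR adjusted p = 0.613). In the cold fbxa-13 (-1.17 ± 0.33) and bath-39 (-1.10 ± 0.34) had the other smallest p values, with the same adjusted p.

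bath-19 had 8.14, 11.8 and 12.1 CPM in ire-1 control, against 3.68, 4.91 and 7.22 CPM in WT control, a log2 fold change of 0.97 ± 0.28 (edgeR adjusted p = 0.202). In the cold it had 10.6, 8.74 and 10.9 CPM in ire-1 and 7.1, 5.88 and 6.67 CPM in WT. In experiment 1 the strains again did not overlap in either condition. In experiment 2, WT control had 5.16, 4.58 and 11.2 CPM of bath-19 and WT cold had 8.47, 5.71 and 10.3 CPM. WT control 6 and WT cold 6 thus lay within the ire-1 ranges. With a block for the replicate number, which the libraries of the 2 strains share within a condition, edgeR called 4 members in the control: fbxc-58 (1.12), fbxa-163 (2.56) and bath-19 (0.99) higher in ire-1, and fbxc-32 (-1.30) lower, among 390 genes called (0.62% higher, 2.1% lower).

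The partners of these proteins are described by lists of ligase genes, whose counts stand beside 10.4% of all tested genes that fell and 2.7% that rose in WT. Of 16 tested SKP1-related genes, 4 fell in WT in the cold and 0 rose (0 at an unadjusted p under 0.05; 0 in DESeq2), with a median log2 fold change of -0.26. These were skr-4 (-1.55 ± 0.36, edgeR adjusted p = 0.0158), skr-10 (-1.40 ± 0.32), skr-21 (-1.21 ± 0.28) and skr-12 (-1.18 ± 0.31), of which skr-12 was not called without the 4 libraries with much sperm RNA (edgeR adjusted p = 0.0654). skr-1, an ortholog of SKP1, had 202.5 ± 19.3 CPM in WT cold and 186.4 ± 19.4 CPM in WT control (SD, n = 6) and was not called.

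Of 8 cullin and RING genes, 1 rose: cul-6, whose product forms a ligase in the intracellular pathogen response, had 10.3 ± 4.5 CPM in WT cold and 3.18 ± 2.19 CPM in WT control (SD, n = 6), with a log2 fold change of 1.61 ± 0.48 (edgeR adjusted p = 0.0441). Its F-box partners fbxa-75 and fbxa-158 averaged under 0.3 CPM in every group, lay below the limit for members and were not tested. Of the intracellular pathogen response list 8 of 17 genes were tested, and cul-6 rose and skr-4 fell. cul-1 (0.36 ± 0.17) and cul-3 (0.30 ± 0.17), the scaffolds of the SCF and the CUL-3 ligases, were not called.

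By the same edgeR test, 0 of 13 NEDD8 cycle genes, 0 of 10 other F-box genes and 0 of 3 ubiquitin and E1 genes were called in WT. At an unadjusted p under 0.05 there were 1, 4 and 2 of these, and DESeq2 called 1, 2 and 1. The other F-box genes include lin-23, sel-10 and fog-2, which act in cell cycle exit, Notch signalling and germline sex. Of 19 other BTB genes, btb-9 and kel-8 (-1.49 ± 0.23, edgeR adjusted p = 0.00159) fell, a share near that of all genes. mel-26, the MATH/BTB adaptor of CUL-3 that removes katanin after meiosis, had 378.7 ± 35.0 CPM in WT cold and 272.3 ± 72.1 CPM in WT control (SD, n = 6), with a log2 fold change of 0.46 ± 0.15 (edgeR adjusted p = 0.0587).

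Of the tissue marker lists, the intestine list had 11 of 14 genes that fell in WT in the cold, with a median log2 fold change of -1.48, against 10.4% of all tested genes. Without the 4 libraries with much sperm RNA, 9 of the 14 fell. The summed level of the list was 17379.3 to 62949.7 CPM in WT cold and 66077.6 to 121163.8 CPM in WT control, without overlap, and 19153.6 to 35813.8 CPM in ire-1 cold against 45821.5 to 54443.5 CPM in ire-1 control. Gene by gene, edgeR called 0 of the 14 for cold in ire-1, where it called 0.0558% of all genes. Their median log2 fold change there was -0.68, with 3 positive values. Of 72 cuticle collagens 8 fell, a share near that of all genes, although their median was -0.96 (-0.40 among 62 collagens without the 4 libraries), and of 22 oocyte and germline markers 1 rose. By the same test 0 of 23 sperm and 0 of 8 body wall muscle markers were called (0 of either at an unadjusted p under 0.05 or in DESeq2). Of 9 neuron markers 1 rose. Median log2 fold changes were -1.47 for sperm, -0.50 for body wall muscle, -0.64 for neuron and 0.30 for oocyte and germline markers. Without the 4 libraries with much sperm RNA, the sperm median was -0.46 among 5 tested. The part of these tissues in the change of the members was not tested.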

How the data were processed

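Whole-worm poly(A) RNA was sequenced in 18 libraries (NEBNext Ultra II kit, 1 ug of total RNA, Trizol extraction, per the labels). The deposited files hold raw read counts per gene, made by the authors with bcl2fastq, STAR 2.5.0a, HTSeq and the build WBcel235, per the submitters' processing notes. The sources used here do not give the annotation release or the strand setting. Gene symbols and coordinates are those of Ensembl for WBcel235, and the 395 family genes were picked by these symbols. Of the genes counted, 3055 had no symbol and could not be picked. CPM are counts over library totals scaled by TMM factors.

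Tests used the quasi-likelihood F test of edgeR 4.0.16 (R 4.3.3) with TMM factors, after filterByExpr (at least 10 counts, total 15). P-values were adjusted over every tested gene (Benjamini-Hochberg). Cold in WT used 12 WT libraries with an experiment term. The other 4 comparisons used the 12 libraries of experiment 1 as 4 groups. SE is the size of the log2 fold change over the square root of F. Alternatives were DESeq2 1.42.0, factors by RLE or upper quartile, unfiltered genes, a replicate block, single experiments and libraries left out. The procedure was tested on simulated data.

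Intervals of single values were not computed; with 3 or 6 libraries a group, the spread between libraries limits the precision. The labels call the replicates biological, and they do not say which cultures they came from. Libraries of the same number and condition correlated across the strains at 0.357 to 0.872 after group means were removed, in 6 of 6 pairs above 0.1. The labels do not say what a number marks, so treating same numbers as pairs of the strains is an assumption. The replicate block of the strain comparisons uses these pairs. For cold in WT and cold in ire-1 the block is the replicate number taken across control and cold. The other fits use no block. Named genes were, in each family and direction, up to 6 called members of smallest p, the 3 of smallest p in each other comparison, the 2 of highest level, the members of the 2 longest runs, those nearest the limit, and set ligase genes. Other named genes were chosen after their values were seen. The members and lists were chosen with earlier results of these data known.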

Additional observations from a re-analysis of the deposited data

Results flagged for a closer look

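In groups of 6 WT libraries, 23 of 112 groups of named members had 1 library further from the others than Dixon's 95% limit allows. That limit assumes independent values of a normal distribution. The groups hold unlogged CPM of both experiments and share libraries, so their number was not compared with chance. WT cold 5 was high for bath-25 (16.2 CPM, others 2.03 to 3.86), fbxc-58 (74.7 CPM, others 13 to 27.9), fbxa-26 (4.82 CPM), fbxa-31 (4.02 CPM), fbxa-55 (2.95 CPM), fbxa-79 (6.78 CPM) and math-22 (12.9 CPM). WT cold 2, a library with much sperm RNA, was high for fbxa-50 (3.64 CPM), fbxa-190 (0.315 CPM), fbxa-84 (0.981 CPM) and math-14 (1.89 CPM). WT cold 3 was high for fbxa-101 (92.7 CPM), fbxa-210 (81.0 CPM), bath-5 (45.0 CPM) and bath-39 (9.39 CPM), and WT cold 4 for fbxa-27 (1.03 CPM).

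WT control 1, also with much sperm RNA, was high for math-22 (16 CPM, others 3.33 to 5.4), fbxa-79 (6.35 CPM), fbxa-31 (3.84 CPM), fbxa-196 (2.78 CPM) and fbxa-63 (2.43 CPM). WT control 2 was high for fbxa-101 (90.9 CPM) and WT control 3 for fbxa-13 (3.99 CPM). Every gap was on the high side. fbxa-196 reached the 1 CPM limit in ire-1 control alone, where ire-1 control 1 had 3.02 CPM and the group mean was 1.03 CPM. It also had 2.55 CPM in ire-1 cold 2 and 0.701 CPM in WT cold 2. Outside the 4 libraries with much sperm RNA it had at most 0.446 CPM. fbxa-202 had 3.96 CPM in WT control 1, 4.05 CPM in ire-1 control 1, 0.806 CPM in WT cold 2 and 3.28 CPM in ire-1 cold 2. In the other libraries it had at most 0.714 CPM.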

How the results depend on the processing

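The number of members was 143, against 144 with unscaled CPM and 125 with a mean over 18 libraries. For cold in WT, members lower and higher numbered 29 and 5, and within 1.5 times that with RLE (27 and 6) or upper-quartile factors (29 and 5), DESeq2 (30 and 7), no filter (23 and 5), all 18 libraries (31 and 5) and without WT control 6 and WT cold 5 (37 and 6). Each experiment alone gave 0 and 0. Leaving out 1 library gave 17 to 34 lower and 4 to 6 higher, with 17 without WT cold 1. Upper-quartile factors moved the median of all genes to -0.18. For cold in ire-1, RLE gave 1 lower, DESeq2 gave 2 higher and 14 lower, the fit without the 4 libraries with much sperm RNA gave 4 higher and 7 lower, and leaving out 1 library gave 0 to 4 lower, with 4 without WT control 1. For ire-1 against WT in the control, DESeq2 gave 1 higher. RLE moved the median of all genes there to 0.12. The cause of these changes was not tested.

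With a replicate block that pairs the strains within a condition, ire-1 against WT in the control gave 3 members higher and 1 lower. For cold in WT and in ire-1 the block was a term for the replicate number, which joins control and cold libraries of a number. In WT it gave 27 lower and 5 higher, losing bath-10 and fbxa-74, and no other count of called members changed. Over all genes it gave 0 calls for cold in ire-1 (8 without it). The block within a condition gave 22 calls for ire-1 against WT in the cold (2 without it). Control and cold libraries of the same number correlated at -0.884 to 0.814, with 6 of 15 pairs above 0.1. These values do not settle whether they are paired, and the main fits assumed no pairing. Of 376 values for single genes, none that was called reversed under an alternative. At 0 to 10 reads a library, as in math-20 or fbxa-190 in the cold, depth limits how large a fall can be measured.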
